A study of Danio rerio with 12 samples.

Results

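The respiratory chain subunit genes of zebrafish skeletal muscle were taken as every gene whose symbol, in any letter case, began with nduf followed by a, b, c, s or v and a digit, with sdha to sdhd, uqcr, cox4 to cox8, cycsb or atp5, or with mt-nd, mt-co, mt-cyb or mt-atp. The rule used names only and no measured value. It found 99 genes encoded in nuclear DNA and 13 in mitochondrial DNA, of 32520 genes in the count tables. The nuclear genes comprised 36 of complex I, 5 of complex II, 8 of complex III, 21 of complex IV, 18 of complex V and cycsb, the copy of cytochrome c that the rule names. The letters of the rule also caught 4 genes of the ndufa4 family, 4 sdhaf genes, which encode assembly factors of complex II, and 2 atp5if1 genes, which encode inhibitors of ATP synthase, and these were kept apart from the complexes. The mitochondrial genes were 7 subunits of complex I, 1 of complex III, 3 of complex IV and 2 of complex V. The symbol table gives many genes a human-style name in capitals, so genes that share a symbol are separated below by the end of their Ensembl identifier.

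The respiratory chain sits in the inner mitochondrial membrane and passes electrons from NADH and succinate through complexes I to IV to oxygen, and complex V (ATP synthase) uses the resulting proton gradient to make ATP. Complexes I, III, IV and V are built from proteins of both genomes, whereas complex II and cytochrome c are wholly nuclear. In striated muscle the mitochondria lie between and around the myofibrils, and desmin, the intermediate filament protein of muscle, links myofibrils to each other and to mitochondria. Several small subunits of complex IV exist as paralogs, and in mammals some of these copies differ between heart and skeletal muscle on one side and liver or lung on the other.

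RNA of dissected muscle was sequenced from fish aged 20 months, all of strain AB. The groups were extraocular muscle (EOM, the muscles that move the eye) of desma-/-;desmb-/- double mutants (des EOM), EOM of WT fish (wt EOM), trunk muscle of the double mutants (des trunk) and trunk muscle of WT fish (wt trunk), with 3 libraries each. The line from which the mutants were generated also gave the WT fish. The series text speaks of a knock-down and of 2 time points, whereas the labels give the double mutant and 20 months, which were followed here. The labels leave unstated if libraries of 1 group stand for separate fish and if both muscles were taken from 1 fish, so the p-values below measure only the spread between these libraries.

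Sense reads in genes numbered 46090609 to 74146170 per library, and 3 reads corresponded to 0.0373 to 0.0754 CPM (counts scaled to a common library size with TMM factors, the level used throughout). DES ENSDARG00000058656.6, the abundant desmin gene, had 26.1, 36.1 and 42.6 CPM in des EOM, against 573, 685 and 649 CPM in wt EOM. It had 17.7, 30.7 and 49.3 CPM in des trunk, against 619, 679 and 559 CPM in wt trunk, which matches the genotype labels. DES ENSDARG00000005221.8 had 3 to 14 reads in every library and checks nothing. Of 9 muscle markers 4 were matched by symbol, and all 4 were detected in every group. One library stood apart for the nuclear members. Replicate 2 of wt EOM was the highest of its 3 libraries for 96 of 98 nuclear members. Results that rest on it are given with and without it, save counts by complex and by list between WT muscles. The count leaves out ndufa4l2b, with 0 or 1 read per library. In the same way replicate 2 of des trunk was the highest of its group for 90 of 98 nuclear members.

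The 2 genomes were first compared by the summed level of their members in each library. The 99 nuclear genes together had 32273, 28399 and 24770 CPM in des EOM, against 29190, 45122 and 29268 CPM in wt EOM. They had 41564, 51964 and 39102 CPM in des trunk, against 46932, 44714 and 50562 CPM in wt trunk. The genotypes thus overlapped in both muscles, and the high wt EOM value was that of replicate 2. The 13 mitochondrial genes together had 119048, 122142 and 112565 CPM in des EOM, against 129751, 142358 and 138411 CPM in wt EOM. They had 131234, 138589 and 124111 CPM in des trunk, against 168081, 143001 and 150550 CPM in wt trunk. In both muscles every des library lay below every wt library of that muscle. The gap was narrow in trunk, and it closed when the sum was expressed as a share of all sense reads without TMM scaling. That share was 10.5%, 9.84% and 10.3% in des trunk, against 13.2%, 10.5% and 13.0% in wt trunk, with the lowest wt library just below the highest des library. In EOM the same share was 15.1%, 16.05% and 15.6% in des libraries, against 16.8%, 16.01% and 17.65% in wt libraries, which also overlapped. A sum over members was given no test, and 3 libraries against 3 could not reach an exact two-sided permutation p below 0.1. In bulk tissue, fewer cells of a type and less RNA per cell cannot be told apart.

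**Figure D1:**
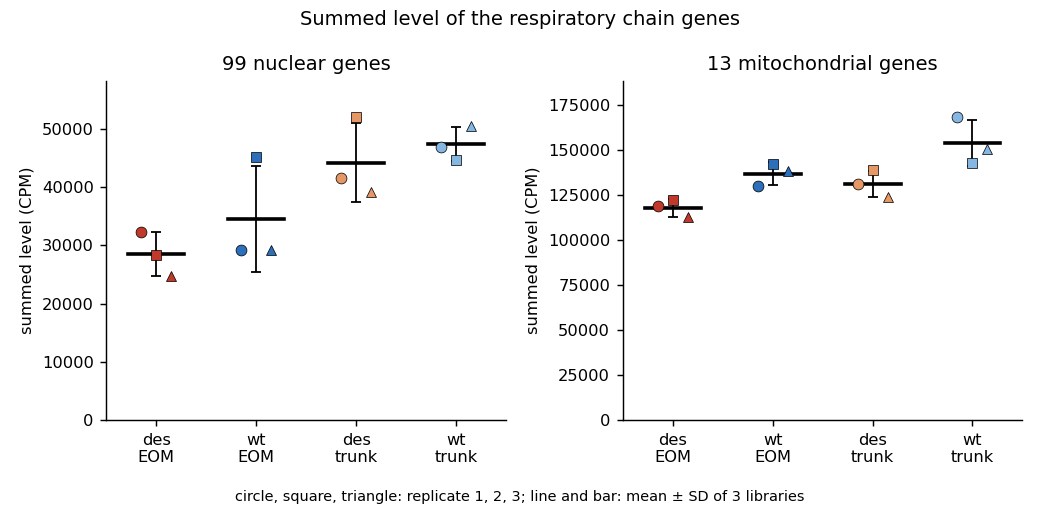
Summed level of the 99 nuclear genes (left) and the 13 mitochondrial genes (right), in CPM, for each of the 12 libraries by group; points are replicates, and lines with bars are the mean ± SD of 3 libraries. The nuclear sums of the genotypes overlap, with wt EOM replicate 2 far above the other wt EOM libraries, while each des library has a lower mitochondrial sum than every wt library of the same muscle.

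The double mutant was compared with WT in EOM to ask which respiratory chain genes differed in the muscle that the series describes as resistant to muscular dystrophy. A single member was called. ndufa4b, a copy of NDUFA4, which in mammals was first assigned to complex I and later found in complex IV, was lower in des EOM. It had 1.94, 1.58 and 2.12 CPM in des EOM, against 8.35, 9.06 and 6.79 CPM in wt EOM. The highest des library had less than every wt library, and these levels rested on 124 to 156 reads in des EOM and 455 to 713 reads in wt EOM. Its log2 fold change was -2.10 ± 0.18 (SE, 3 libraries each), with an adjusted p of 0.00176 in edgeR's quasi-likelihood test. NDUFA4 itself averaged 934 ± 115 CPM in des EOM and 1131 ± 238 CPM in wt EOM (SD, n = 3 each), and its log2 fold change of -0.27 was not called (edgeR adjusted p = 0.445). The share of ndufa4b in the reads of both copies was 0.185%, 0.168% and 0.259% in des EOM, against 0.835%, 0.640% and 0.678% in wt EOM, a measure that library scaling does not enter, and the genotypes did not overlap.

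In all, 1 of 110 tested members was called in EOM, or 0.909%, beside 3.56% of all genes tested (2.15% higher and 1.4% lower). The 2 members that could not be tested were NDUFS1 ENSDARG00000028546.7, with 0 to 8 reads per library, and ndufa4l2b, with 0 or 1. Estimates below 0 were more common than calls. They made up 92.7% of the 110 members, with a median log2 fold change of -0.26, while 52% of all genes tested lay below 0, with a median of -0.02. Groups did not overlap for 11 members that were lower and 1 that was higher, beside 11.6% and 13.3% of all genes tested. Among the nuclear members the excess rested on 1 library. With all libraries 91 of 97 lay below 0, and without wt EOM replicate 2 there were 55 of 97, with a median of -0.02. ndufa4b stayed called whichever of the 6 libraries was left out, with an adjusted p of at most 0.0171. DESeq2 called 3 more members lower, which are named here after their values were seen: NDUFA4L2, atp5mea and sdhaf1. NDUFA4L2, a further relative of NDUFA4, had 13.1, 14.97 and 13.5 CPM in des EOM, against 19.6, 21.6 and 18.1 CPM in wt EOM, without overlap, and its log2 fold change of -0.51 ± 0.12 narrowly missed the edgeR threshold (adjusted p = 0.0534).

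By complex, edgeR called none of the 35 tested nuclear genes of complex I in EOM, although all 35 had estimates below 0 (median -0.29), and 3 reached an unadjusted p under 0.05. NDUFV1, which binds the flavin that accepts electrons from NADH, had 431, 352 and 346 CPM in des EOM, against 410.3, 604 and 453 CPM in wt EOM. These groups overlapped, and without wt EOM replicate 2 only 22 of the 35 estimates were below 0. None of the 5 genes of complex II was called, and SDHA, the flavoprotein that oxidises succinate, averaged 444 ± 52.8 CPM in des EOM and 509 ± 63.9 CPM in wt EOM (SD, n = 3 each). None of the 8 nuclear genes of complex III was called either, with UQCRFS1, the Rieske iron-sulfur protein, at 402 ± 54.5 CPM in des EOM and 562 ± 157 CPM in wt EOM (SD, n = 3 each). In complex V all 18 estimates lay below 0 (median -0.27), and 6 of 18 did so without wt EOM replicate 2. ATP5F1B, the catalytic beta subunit, had 2392, 1721 and 1968 CPM in des EOM, against 2238, 3156 and 2450 CPM in wt EOM, again with overlap. Of these classes complex II had no gene with an unadjusted p under 0.05, complex III had 2 and complex V had 1, and DESeq2 called only atp5mea among them, a complex V gene that is described with its paralog below.

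Estimates of complex IV lay on both sides of 0 in EOM. Of its 21 genes 16 lay below 0 (9 without wt EOM replicate 2), and none was called by edgeR or by DESeq2, with 2 at an unadjusted p under 0.05. cox6b1, one of a pair of genes for the subunit that clamps the complex IV dimer on its outer face, had 71.1, 50.8 and 50.2 CPM in des EOM, against 39.3, 47.9 and 24.3 CPM in wt EOM. Every des library was above every wt library, but the log2 fold change of 0.63 ± 0.24 missed the threshold (edgeR adjusted p = 0.215). COX4I1, a regulatory subunit and the nuclear complex IV gene with most reads, had 1452, 1312 and 1135 CPM in des EOM, against 1366, 2130 and 1335 CPM in wt EOM. The high value was replicate 2 of wt EOM, and the estimate was -0.31 ± 0.20 (edgeR adjusted p = 0.463).

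None of the 13 mitochondrial genes was called in EOM by edgeR or by DESeq2, with 3 at an unadjusted p under 0.05. Of the 13 estimates 11 lay below 0 (median -0.13), and 10 did so without wt EOM replicate 2. The 3 genes without overlap between genotypes were MT-CO1, MT-CO2 and MT-ND3. MT-CO1, which holds the oxygen-reducing centre of complex IV, had 33738, 32155 and 36682 CPM in des EOM, against 40896, 40526 and 46410 CPM in wt EOM. Its log2 fold change was -0.31 ± 0.12, with an edgeR adjusted p of 0.208. MT-CO2, which takes electrons from cytochrome c, had 19959, 22449 and 19032 CPM in des EOM, against 25116, 29847 and 24460 CPM in wt EOM, and its log2 fold change was -0.37 ± 0.13 at an edgeR adjusted p of 0.171. Both genes were thus lower in every des library by an amount that did not pass the test over all genes. MT-ND3, a small membrane subunit of complex I, averaged 1143 ± 168 CPM in des EOM and 1523 ± 221 CPM in wt EOM (SD, n = 3 each; edgeR adjusted p = 0.200). Other mitochondrial genes lay close together. MT-CYB, the heme-bearing subunit of complex III, had 15497, 16057 and 13124 CPM in des EOM, against 14314, 15652 and 15297 CPM in wt EOM. MT-ND4, a proton-pumping subunit of complex I, averaged 6488 ± 485 CPM in des EOM and 6265 ± 140 CPM in wt EOM (SD, n = 3 each). As a share of the reads of the 13 genes, MT-CYB held 13.02%, 13.1% and 11.7% in des EOM, against 11.03%, 10.99% and 11.1% in wt EOM, without overlap. MT-ND4 held 5.67%, 5.55% and 5.27% in des EOM, against 4.92%, 4.29% and 4.55% in wt EOM, again with every des library higher. Such shares are parts of 1 total and rise where other genes of the 13 fall, and the levels of MT-CYB and MT-ND4 overlapped between genotypes.

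In trunk muscle 3 of 110 tested members were called between genotypes, or 2.73%, beside 8.4% of all genes tested (4.76% higher and 3.63% lower). Those that rose were cox6b1 and COX7A2 ENSDARG00000110700.1, and the one that fell was mt-nd4l. cox6b1 had 43.3, 62.8 and 40.7 CPM in des trunk, against 25.5, 19.1 and 14.9 CPM in wt trunk. The lowest des library was above the highest wt library. The log2 fold change was 1.32 ± 0.22 with an edgeR adjusted p of 0.00822, and no leave-out of a single library ended the call, with an adjusted p of at most 0.0356. Its paralog cox6b2 had 941, 1109 and 891 CPM in des trunk, against 949, 960.3 and 1047 CPM in wt trunk, which overlapped, with a log2 fold change of 0.01.

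COX7A2 ENSDARG00000110700.1, one of the genes for a small subunit at the surface of complex IV, had 9.92, 9.43 and 8.45 CPM in des trunk, against 6.77, 5.67 and 6.69 CPM in wt trunk. The groups did not overlap, and the log2 fold change was 0.56 ± 0.15 (edgeR adjusted p = 0.046). Leaving out any library but wt trunk replicate 3 ended the call, with an adjusted p of up to 0.174. mt-nd4l, a small hydrophobic subunit of complex I, had 464, 473 and 465 CPM in des trunk, against 675, 657 and 781 CPM in wt trunk. The 3 des libraries lay close together and below all wt libraries, with a log2 fold change of -0.57 ± 0.14 and an edgeR adjusted p of 0.0298. Leaving out wt trunk replicate 1 or any of the des trunk libraries ended the call, with an adjusted p of up to 0.131. In vertebrate mitochondrial DNA the gene overlaps the start of MT-ND4, and reads that lie in both genes were counted for neither.

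**Figure D2:**
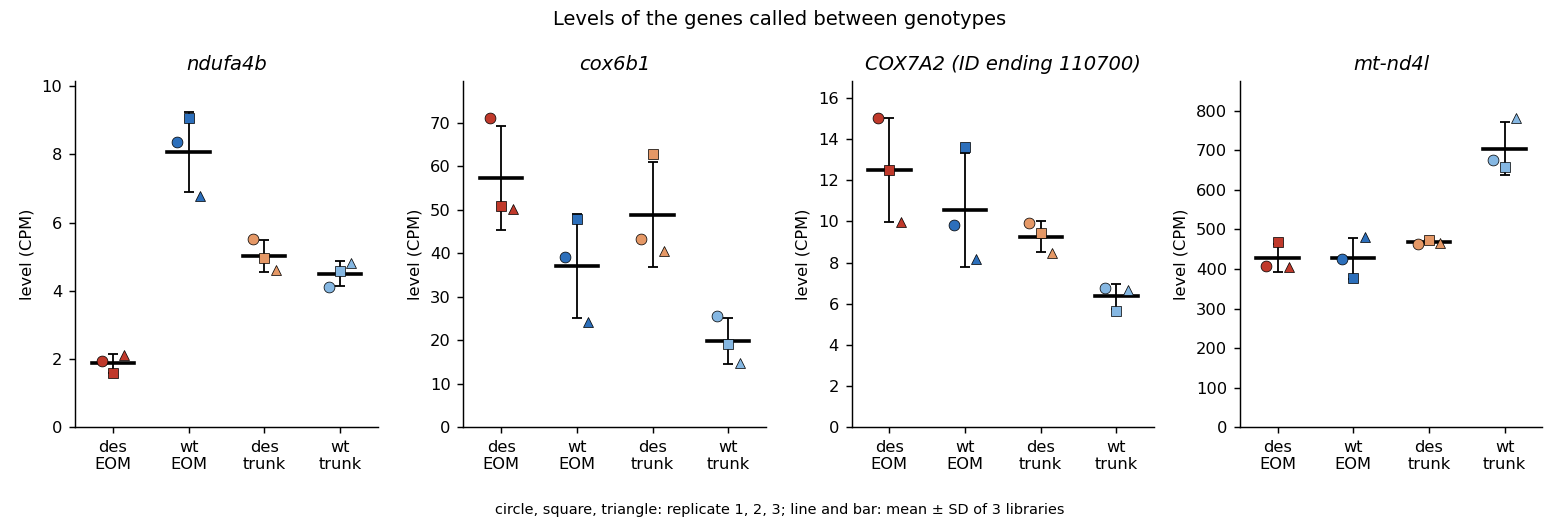
Level in CPM (axis from 0) of the 4 genes called between genotypes in either muscle, for each library by group; points are replicates, and lines with bars are the mean ± SD of 3 libraries. ndufa4b is lowest in des EOM, at 1.58 to 2.12 CPM, cox6b1 and COX7A2 are higher in des trunk than in wt trunk, and mt-nd4l is highest in wt trunk, at 657 to 781 CPM.

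The 13 mitochondrial genes had one direction in trunk. All 13 estimates were below 0, with a median of -0.26, while 51.5% of all genes tested were below 0. For 10 of the 13 every des library lay below every wt library, beside 15.2% of all genes tested. The estimates ranged from -0.57 to -0.07, and between 12 and 13 of them remained below 0 in each of the fits that left out 1 library. MT-ND6, the complex I subunit encoded on the opposite strand to the other members, had 20.1, 22.8 and 19.2 CPM in des trunk, against 27.5, 27.8 and 33.3 CPM in wt trunk. Its log2 fold change of -0.49 ± 0.14 narrowly missed the threshold (edgeR adjusted p = 0.0508), and DESeq2 called it. The gene had 919 to 1323 reads per trunk library, and how many of these were reads of the other strand was not tested. MT-ND5, a proton-pumping subunit of complex I, had 4220, 4508 and 4652 CPM in des trunk, against 5814, 5430 and 6332 CPM in wt trunk, and its log2 fold change was -0.38 ± 0.14 at an edgeR adjusted p of 0.121, while DESeq2 called it too. Both had every des library below every wt library. MT-CO2 had 18083, 18474 and 16688 CPM in des trunk, against 27160, 21147 and 21604 CPM in wt trunk, with -0.37 ± 0.15 as its log2 fold change (edgeR adjusted p = 0.152). MT-CYB averaged 14249 ± 639 CPM in des trunk and 17308 ± 1142 CPM in wt trunk (SD, n = 3 each; edgeR adjusted p = 0.261). MT-ATP6, the proton channel subunit of ATP synthase, averaged 9222 ± 377 CPM in des trunk and 10785 ± 905 CPM in wt trunk (SD, n = 3 each; edgeR adjusted p = 0.393), and mt-atp8, a small neighbouring subunit, averaged 166 ± 4.03 CPM in des trunk and 217 ± 50.2 CPM in wt trunk (edgeR adjusted p = 0.213). The 3 genes whose genotypes overlapped in trunk were MT-ND1, MT-ND3 and MT-CO1. MT-CO1 had 51194, 54680 and 46727 CPM in des trunk, against 63014, 53982 and 53142 CPM in wt trunk, with a log2 fold change of -0.14 ± 0.14.

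The nuclear members of trunk lay on both sides of 0. Of 97 estimates 58 were below 0 (median -0.05), with 34 below 0 without des trunk replicate 3, 36 without wt trunk replicate 3 and 52 to 80 without any of the others. edgeR called none of the 35 tested genes of complex I, with 1 at an unadjusted p under 0.05, none of the 5 of complex II, with 0, none of the 8 of complex III, with 1, and none of the 18 of complex V, with 0. Of these DESeq2 called only UQCRH, the hinge protein of complex III, which is named here after its value was seen, with a log2 fold change of -0.53 and an edgeR adjusted p of 0.0695. SDHA averaged 683 ± 80.8 CPM in des trunk and 701 ± 98.5 CPM in wt trunk (SD, n = 3 each). ATP5F1B had 4573, 5940 and 4492 CPM in des trunk, against 5872, 5824 and 6226 CPM in wt trunk. cycsb, the electron carrier between complexes III and IV, had 580 to 738 CPM in des trunk, against 407 to 934 CPM in wt trunk. These ranges overlapped. Both called nuclear genes were small subunits of complex IV, in which groups did not overlap for 4 of 21 genes that were higher and for 0 that were lower, beside 15% of all genes tested that were higher. A further copy, COX5B ENSDARG00000015978.6, had 19.6, 21.2 and 17.0 CPM in des trunk, against 13.7, 12.3 and 15.9 CPM in wt trunk. Its groups did not overlap, with a log2 fold change of 0.48 ± 0.15 and an edgeR adjusted p of 0.0732, which became 0.0183 without wt trunk replicate 3. cox4i1l, a copy of the regulatory subunit 4, had 310.2, 285 and 159 CPM in des trunk, against 171, 163 and 148 CPM in wt trunk. In that gene replicate 3 of des trunk lay within the range of wt trunk, and the log2 fold change of 0.67 ± 0.23 was not called by edgeR (adjusted p = 0.102) but was by DESeq2, and by edgeR without that library (adjusted p = 0.011).

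**Figure D3:**
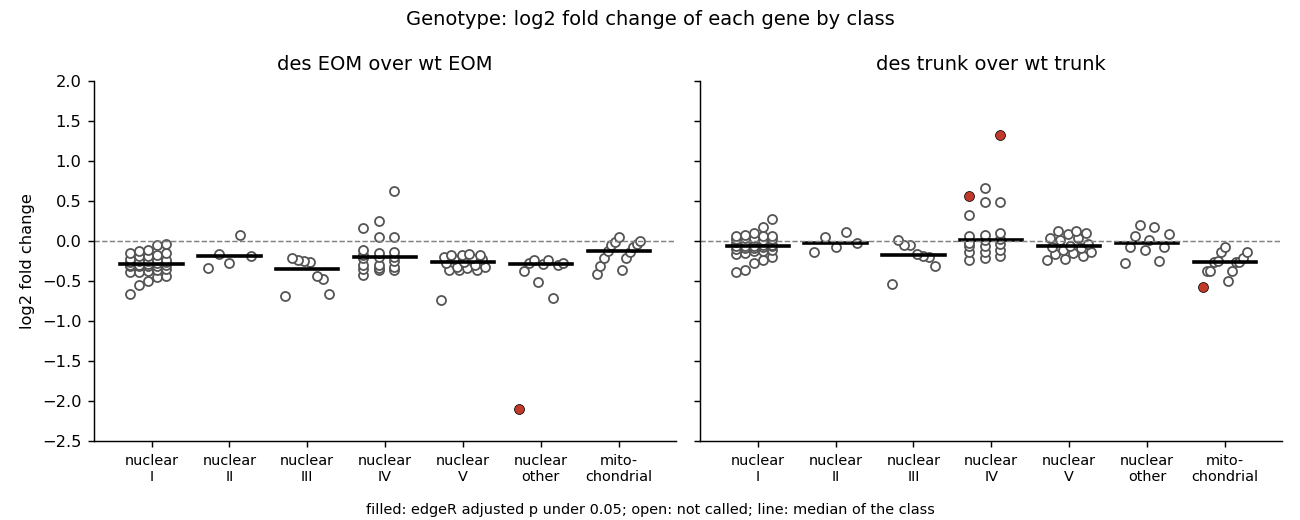
Log2 fold change of each of the 110 tested genes, des over wt, in EOM (left) and trunk (right), by nuclear complex, other nuclear genes (cytochrome c, ndufa4 family, sdhaf and atp5if1 genes) and mitochondrial genes; filled points passed an adjusted p of 0.05 in edgeR, and lines are class medians. One point is filled in EOM (ndufa4b, -2.10) and 3 are filled in trunk, and all 13 mitochondrial points lie below 0 in trunk.

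The difference between the genotype effects of the 2 muscles was tested in 1 fit of all 12 libraries. ndufa4b was the only one of 110 members called, beside 0.0914% of all genes tested (0.0305% higher and 0.061% lower). Its genotype effect in EOM minus that in trunk was -2.26 ± 0.24 in log2 units, with an edgeR adjusted p of 0.00159. In trunk it had 5.51, 4.96 and 4.60 CPM in des libraries, against 4.10, 4.57 and 4.83 CPM in wt libraries. These overlapped, and the difference kept its call whichever of the 12 libraries was left out, with an adjusted p of at most 0.0115. cox6b1 had a difference of -0.67 ± 0.37 (edgeR adjusted p = 0.576), cox4i1l one of -0.99 ± 0.29 (edgeR adjusted p = 0.293) and mt-nd4l one of 0.59 ± 0.18 (edgeR adjusted p = 0.328). None of these was shown to differ between the muscles. For the nuclear members 94 of 97 differences were below 0, but without wt EOM replicate 2 there were 45 of 97. For the mitochondrial members 2 of 13 were below 0 with all libraries, and 2 to 6 when 1 library was left out.

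EOM and trunk were then compared within each genotype, in fits that share no library. With TMM scaling, catalytic subunits of complex V and some genes of complexes I to III were lower in EOM. Calls of complex IV lay in both directions, and several of its low-level copies were higher. Of its 21 nuclear genes 6 were called higher in each genotype, close to the 27.4% of all genes in the mutants and 25.6% in WT fish. In the mutants 65 of 110 members were called, 8 higher and 57 lower in des EOM, or 59.1%, beside 53.1% of all genes tested (27.4% higher and 25.7% lower). In WT fish 32 of 110 were called, 11 higher and 21 lower in wt EOM, or 29.1%, beside 48.8% of all genes tested (25.6% higher and 23.2% lower). Groups did not overlap for 11 members that were higher and 62 that were lower in des EOM, beside 31.7% and 29.8% of all genes tested, and for 12 that were higher and 33 that were lower in wt EOM, beside 31% and 29.1%. Estimates were below 0 for 88 of 110 members in des EOM, beside 48.1% of all genes tested, and for 73 in wt EOM, beside 47.2%. The overlap of calls between the genotypes was not counted over all genes, so the overlap that follows is not shown to be particular to the members. Of the called members, 27 were called in both genotypes, 84.4% of the WT list and 41.5% of the mutant list, and 26 of the 27 had the same direction. The exception was ndufa4b, with a log2 fold change of -1.41 ± 0.18 for des EOM over des trunk (edgeR adjusted p = 6.7e-05) and of 0.88 ± 0.18 for wt EOM over wt trunk (edgeR adjusted p = 0.00355). The number called in WT fish depended on single libraries: it was 17 without wt EOM replicate 1 and 56 without wt EOM replicate 2. Of all genes tested 36.6% and 43.3% were called in these fits.

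The direction of most of these calls depended on how libraries were scaled. Without TMM scaling the median log2 fold change of all genes moved to 0.79 from 0.04 in the mutants and to 0.66 from 0.06 in WT fish. Unscaled, 61 of 110 members were called higher and 9 lower in des EOM, beside 60.7% and 8.35% of all genes tested. In wt EOM 51 of 110 were called higher and 3 lower, beside 48.9% and 10.4% of all genes tested. Members that kept call and direction under both scalings numbered 8 of 8 higher and 9 of 57 lower in des EOM. In wt EOM they numbered 11 of 11 higher and 3 of 21 lower. Leaving out TMM moved estimates of EOM over trunk upward, so that a rise kept its call is no check on it. Only for the falls could the change of scaling end a call in this way. The matching share over all genes was not counted. Fold changes between muscles are given with TMM.

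**Figure D4:**
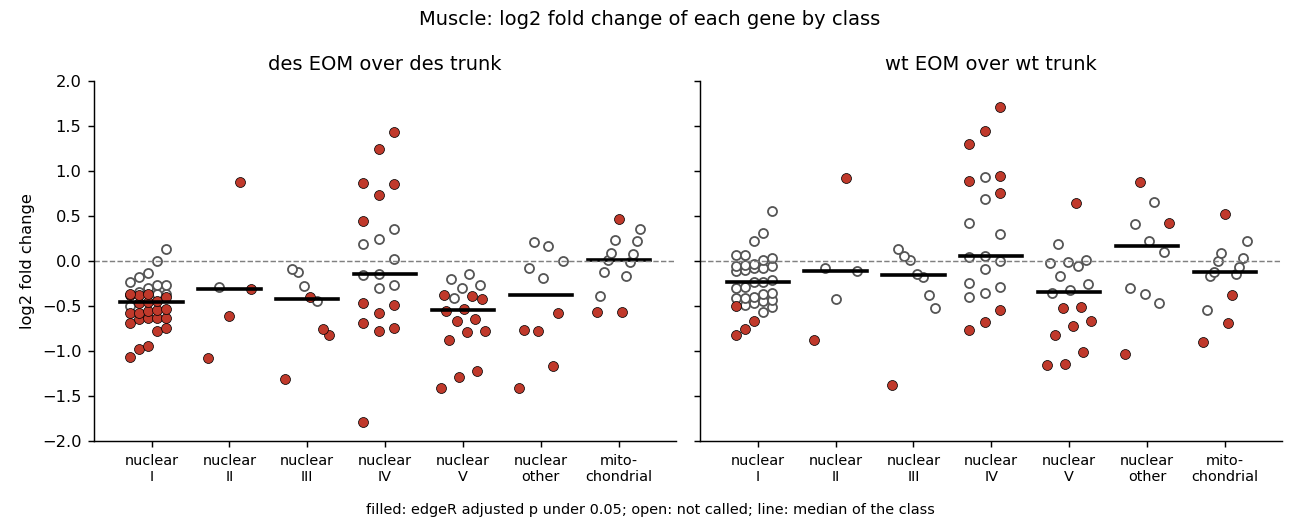
Log2 fold change of each of the 110 tested genes, EOM over trunk with TMM scaling, in des (left) and wt fish (right), by nuclear complex, other nuclear genes and mitochondrial genes; filled points passed an adjusted p of 0.05 in edgeR, and lines are class medians. In both genotypes the filled points of complex V lie mostly below 0, and those of complex IV lie on both sides.

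In complex V 13 of 18 nuclear genes fell in des EOM and 0 rose, beside 25.7% and 27.4% of all genes tested. In wt EOM 8 of 18 fell and 1 rose, beside 23.2% and 25.6% of all genes. ATP5F1B had 2392, 1721 and 1968 CPM in des EOM, against 4573, 5940 and 4492 CPM in des trunk, and 2238, 3156 and 2450 CPM in wt EOM, against 5872, 5824 and 6226 CPM in wt trunk. The muscles did not overlap in either genotype, and the log2 fold changes were -1.29 ± 0.16 in the mutants (edgeR adjusted p = 6.95e-05) and -1.16 ± 0.16 in WT fish (edgeR adjusted p = 0.00056). ATP5F1A, the alpha subunit that forms the catalytic hexamer with beta, had 1275, 914 and 942 CPM in des EOM, against 2500.3, 3498 and 2415 CPM in des trunk, and 1107, 1645 and 1223 CPM in wt EOM, against 3024, 2893 and 3114 CPM in wt trunk. Both genes stayed called lower without TMM in both genotypes. ATP5F1D, the delta subunit of the central stalk, averaged 144 ± 33.9 CPM in des EOM, against 339 ± 83.6 CPM in des trunk (SD, n = 3 each), a log2 fold change of -1.23. In WT fish its log2 fold change was -1.01 (edgeR adjusted p = 0.00555), a call that was lost without TMM. atp5if1a, which encodes an inhibitor of ATP synthase, averaged 85.4 ± 19.6 CPM in des EOM, against 193 ± 39.1 CPM in des trunk, and 101.2 ± 32.6 CPM in wt EOM, against 211 ± 13.9 CPM in wt trunk (SD, n = 3 each). Its fold changes were -1.16 and -1.03 on the log2 scale, and the WT call was lost without TMM. Its paralog atp5if1b did not follow, with 235 ± 15.2 CPM in des EOM, against 237 ± 28.2 CPM in des trunk, and 289 ± 68.2 CPM in wt EOM, against 253 ± 18.2 CPM in wt trunk (SD, n = 3 each).

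In complex III uqcrc2a, a copy of the core protein 2, fell in both genotypes. It had 276, 218 and 212 CPM in des EOM, against 512, 710.4 and 540.1 CPM in des trunk, and 239, 354 and 242 CPM in wt EOM, against 773, 737 and 716 CPM in wt trunk. The muscles did not overlap, the log2 fold changes were -1.31 ± 0.16 and -1.38 ± 0.18 (edgeR adjusted p = 4.49e-05 and 0.000409), and both calls held without TMM. In complex I 23 of 35 tested nuclear genes fell in des EOM, or 65.7%, beside 25.7% of all genes tested, and none rose. In wt EOM 4 of 35 fell, or 11.4%, below the 23.2% of all genes, and none rose. The WT count leans on wt EOM replicate 2. Over all 110 members 21 were called lower in wt EOM, and 50 without that library. The count for complex I alone is not given without it, so the contrast with the mutants is not shown to be one of genotype. ndufb3, an accessory subunit, is named here after its values were seen. It had 129.9, 112.02 and 96.7 CPM in des EOM, against 232, 274 and 207 CPM in des trunk, and 127, 203 and 129 CPM in wt EOM, against 272, 276 and 285 CPM in wt trunk. The muscles did not overlap in either genotype, and the log2 fold changes were -1.06 ± 0.14 and -0.82 ± 0.20 (edgeR adjusted p = 0.000108 and 0.0087), of which the WT call was lost without TMM. NDUFV1 had a log2 fold change of -0.75 in the mutants (edgeR adjusted p = 0.000899), which turned to 0.01 without TMM, and of -0.49 in WT fish (edgeR adjusted p = 0.0834). In complex II 3 of 5 genes fell and 1 rose in des EOM, or 80% called, beside 53.1% of all genes tested. In wt EOM 1 fell and 1 rose, or 40% called, beside 48.8% of all genes. SDHB, the iron-sulfur subunit, is also named after its values were seen. It fell in both, with log2 fold changes of -1.08 in the mutants and -0.87 in WT fish (edgeR adjusted p = 0.000399 and 0.00558), the WT call again being lost without TMM. The riser in both was SDHD ENSDARG00000055712.6, a copy of a membrane anchor with few reads, at 1.504, 1.94 and 1.40 CPM in des EOM, against 0.760, 0.988 and 0.899 CPM in des trunk, and log2 fold changes of 0.88 in the mutants and 0.92 in WT fish (edgeR adjusted p = 0.011 and 0.0366). The mutant call was lost without des EOM replicate 2, and the WT call without replicate 1 or 2 of wt EOM or of wt trunk, with an adjusted p of up to 0.125. For cycsb, which fell in des EOM, the log2 fold change was -0.77 at an edgeR adjusted p of 0.00114, a call that was lost without TMM and in the fit of all 12 libraries, and in wt EOM it was -0.30 and not called (edgeR adjusted p = 0.538).

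Calls of complex IV lay in both directions, as did those of all genes tested. In des EOM 6 of 21 nuclear genes rose and 7 fell, beside 27.4% and 25.7% of all genes. In wt EOM 6 rose and 3 fell, beside 25.6% and 23.2% of all genes. The largest rise was that of COX4I2, the copy of subunit 4 that in mammals is found mainly in lung. It had 45.2, 51.3 and 49.3 CPM in des EOM, against 20.3, 17.7 and 16.5 CPM in des trunk, and 50.8, 48.4 and 41.9 CPM in wt EOM, against 17.2, 15.1 and 12.02 CPM in wt trunk. No EOM library overlapped with trunk, and the log2 fold changes were 1.43 ± 0.11 and 1.71 ± 0.17 (edgeR adjusted p = 1.94e-06 and 7.51e-05). cox4i1l had the opposite order, with log2 fold changes of -1.79 ± 0.23 in the mutants and -0.77 ± 0.16 in WT fish (edgeR adjusted p = 0.000175 and 0.00419), and in WT fish the call was lost without TMM. Its paralog COX4I1 had 1299.7 ± 159 CPM in des EOM, against 1146 ± 143 CPM in des trunk (SD, n = 3 each), a log2 fold change of 0.19 that was not called. cox8a, which encodes the smallest subunit, had 47.5, 43.7 and 28.6 CPM in des EOM, against 17.4, 18.4 and 15.2 CPM in des trunk, and 46.5, 76.7 and 37.96 CPM in wt EOM, against 18.4, 12.5 and 29.6 CPM in wt trunk. The EOM libraries were all above the trunk libraries of their genotype, with log2 fold changes of 1.24 ± 0.18 and 1.44 ± 0.37 (edgeR adjusted p = 0.000205 and 0.0129), and with reads of either strand the WT call was lost (adjusted p = 0.0551). COX5B ENSDARG00000015978.6 had log2 fold changes of 0.87 in des EOM and 1.30 in wt EOM (edgeR adjusted p = 0.000488 and 0.000929), and COX7A2 ENSDARG00000053217.6 had values of 0.85 and 0.89 (edgeR adjusted p = 0.00261 and 0.0197), the WT call being lost without replicate 1 or 2 of wt trunk. COX6A1 ENSDARG00000054588.6 fell by 0.78 in des EOM and by 0.54 in wt EOM (edgeR adjusted p = 0.00312 and 0.0372), and without TMM the values were -0.02 and 0.04. Its WT call was also lost without any single library but wt EOM replicate 2, with an adjusted p of up to 0.135. cox6b1 was called higher in wt EOM, at a log2 fold change of 0.94 with an edgeR adjusted p of 0.0177, a call that was lost without replicate 1 or 2 of wt EOM or replicate 2 or 3 of wt trunk (adjusted p of up to 0.0667), and in the mutants, where trunk was also high, its log2 fold change was 0.24 (edgeR adjusted p = 0.306).

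Of the 13 mitochondrial genes 1 rose and 2 fell in des EOM, or 23.1% called, below the 53.1% of all genes tested. In wt EOM 1 rose and 3 fell, or 30.8% called, below the 48.8% of all genes. The riser in des EOM was MT-ND6 (log2 fold change 0.47, edgeR adjusted p = 0.0176), whose value turned to -0.31 when reads of either strand were counted, and the riser in wt EOM was MT-ND3 (0.53, edgeR adjusted p = 0.0401). The MT-ND6 call was also lost without des EOM replicate 1 or replicate 1 or 3 of des trunk. That of MT-ND3 was lost with RLE size factors and without replicate 1 or 2 of wt EOM or replicate 2 or 3 of wt trunk, with an adjusted p of up to 0.168. MT-ND5 had 2727, 3043 and 3186 CPM in des EOM, against 4220, 4508 and 4652 CPM in des trunk, and 2866, 2762 and 3593 CPM in wt EOM, against 5814, 5430 and 6332 CPM in wt trunk. It was the mitochondrial gene with the largest difference in both genotypes, with log2 fold changes of -0.57 ± 0.12 and -0.90 ± 0.16 (edgeR adjusted p = 0.00269 and 0.00185), and without TMM the mutant value turned to 0.18 and the WT call was lost (-0.30, edgeR adjusted p = 0.158). MT-CO1 fell by 0.56 in des EOM and by 0.38 in wt EOM (edgeR adjusted p = 0.00521 and 0.0458), and both turned sign without TMM, to 0.19 and 0.23. Its WT call was lost with no filter on low counts and without any single library but wt trunk replicate 3, with an adjusted p of up to 0.156. Within the reads of the 13 genes, a share that no scaling changes, MT-CO1 held 28.3%, 26.3% and 32.6% in des EOM, against 39.0%, 39.5% and 37.6% in des trunk, and 31.5%, 28.5% and 33.5% in wt EOM, against 37.5%, 37.7% and 35.3% in wt trunk. MT-ND5 held 2.29%, 2.49% and 2.83% in des EOM, against 3.22%, 3.25% and 3.75% in des trunk, and 2.21%, 1.94% and 2.60% in wt EOM, against 3.46%, 3.80% and 4.21% in wt trunk. Both shares were lower in every EOM library than in every trunk library of the same genotype, whereas those of MT-CO2, MT-CO3 and MT-ND3 were higher in every EOM library. As parts of 1 total, these shares do not move independently. MT-CO2 held 16.8%, 18.4% and 16.9% in des EOM, against 13.8%, 13.3% and 13.4% in des trunk, and 19.4%, 21.0% and 17.7% in wt EOM, against 16.2%, 14.8% and 14.4% in wt trunk. Mitochondrial reads per nuclear member read numbered 3.69, 4.30 and 4.54 in des EOM, against 3.16, 2.67 and 3.17 in des trunk, without overlap, and 4.45, 3.15 and 4.73 in wt EOM, against 3.58, 3.20 and 2.98 in wt trunk, where replicate 2 of wt EOM fell within the trunk range.

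The make-up of the nuclear reads by complex, a description added after the sums had been seen, likewise does not depend on scaling. Complex V genes held 38.01%, 36.6% and 37.8% of the reads of nuclear members in des EOM, against 43.3%, 45.0% and 44.1% in des trunk, and 37.1%, 37.3% and 38.1% in wt EOM, against 45.6%, 46.1% and 44.5% in wt trunk. Complex IV genes held 23.4%, 23.7% and 22.9% in des EOM, against 19.1%, 18.7% and 18.3% in des trunk, and 22.8%, 23.3% and 22.5% in wt EOM, against 17.9%, 18.0% and 17.9% in wt trunk. Complex I genes held 22.2%, 22.7% and 22.2% in des EOM, against 21.1%, 20.3% and 20.8% in des trunk, and 22.7%, 22.1% and 22.2% in wt EOM, against 20.1%, 20.2% and 20.2% in wt trunk. The muscles did not overlap in any of these, with complex V lower and complexes IV and I higher in EOM in both genotypes. The shares are parts of 1 total, so a lower share of complex V raises the others. With TMM the summed level of complex I averaged 6369 ± 826 CPM in des EOM, against 9142 ± 1262 CPM in des trunk. In WT fish it averaged 7698 ± 1987 CPM in EOM and 9547 ± 602 CPM in trunk (SD, n = 3 each). Without TMM its log2 ratio, EOM over trunk, was 0.24 in mutants and 0.30 in WT fish. Replicate 2 of wt EOM, whose nuclear sum was far above the other libraries of its group, had shares within 1 percentage point of theirs in all 3 complexes. Between genotypes the EOM shares of these 3 complexes overlapped, whereas complex III genes held 7.48%, 7.67% and 7.67% in des EOM, against 8.01%, 8.25% and 7.90% in wt EOM, without overlap. In trunk the des libraries lay above the wt libraries for complexes I and IV, and overlapped with them for complex V.

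Read shares within 15 pairs of paralogs described single copies, again free of scaling. COX4I2 held 3.02%, 3.76% and 4.17% of the reads of COX4I2 and COX4I1 in des EOM, against 1.87%, 1.34% and 1.52% in des trunk, and 3.58%, 2.22% and 3.04% in wt EOM, against 1.25%, 1.16% and 0.850% in wt trunk. uqcrc2a held 41.2%, 36.5% and 38.8% of the reads of uqcrc2a and UQCRC2 in des EOM, against 46.2%, 50.2% and 48.4% in des trunk, and 38.8%, 39.4% and 39.9% in wt EOM, against 56.2%, 56.6% and 49.9% in wt trunk. Both pairs separated the muscles without overlap in each genotype. atp5if1a averaged 26.4% ± 3.35 of its pair in des EOM and 44.6% ± 2.04 in des trunk, and 25.7% ± 1.62 in wt EOM and 45.5% ± 0.164 in wt trunk (SD, n = 3 each). For COX7A2 ENSDARG00000053217.6 within the pair with cox7a1, in mammals the heart and muscle copy, the share averaged 26.9% ± 1.01 in des EOM and 11.998% ± 1.74 in des trunk, and 23.7% ± 2.25 in wt EOM and 11.8% ± 1.81 in wt trunk (SD, n = 3 each). cox8a held 8.88% ± 1.06 of the reads of cox8a and cox8b in des EOM and 4.07% ± 0.265 in des trunk, and 9.56% ± 1.39 in wt EOM and 4.92% ± 1.70 in wt trunk (SD, n = 3 each).

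Between genotypes, cox6b1 held 7.02%, 5.29% and 6.21% of the reads of cox6b1 and cox6b2 in des EOM, against 4.45%, 3.58% and 2.72% in wt EOM, and 4.40%, 5.36% and 4.37% in des trunk, against 2.62%, 1.95% and 1.40% in wt trunk. The des libraries were above the wt libraries in both muscles without overlap. cox4i1l held 22.6%, 17.9% and 12.96% of the reads of cox4i1l and COX4I1 in des trunk, against 11.2%, 11.3% and 9.55% in wt trunk, also without overlap, whereas it held 4.47%, 5.09% and 6.50% in des EOM, against 6.78%, 4.503% and 5.39% in wt EOM. atp5mea, a copy of subunit e, which links ATP synthase dimers, was chosen after its values were seen and held 24.7%, 25.7% and 23.7% of the reads of atp5mea and atp5meb in des EOM, against 31.7%, 32.8% and 31.7% in wt EOM. Its level in des EOM had a log2 fold change of -0.74 that edgeR did not call (adjusted p = 0.098), whereas DESeq2 did. Multimapping reads were not counted for any gene, so for close paralogs these shares cover only reads that tell the copies apart.

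**Figure D5:**
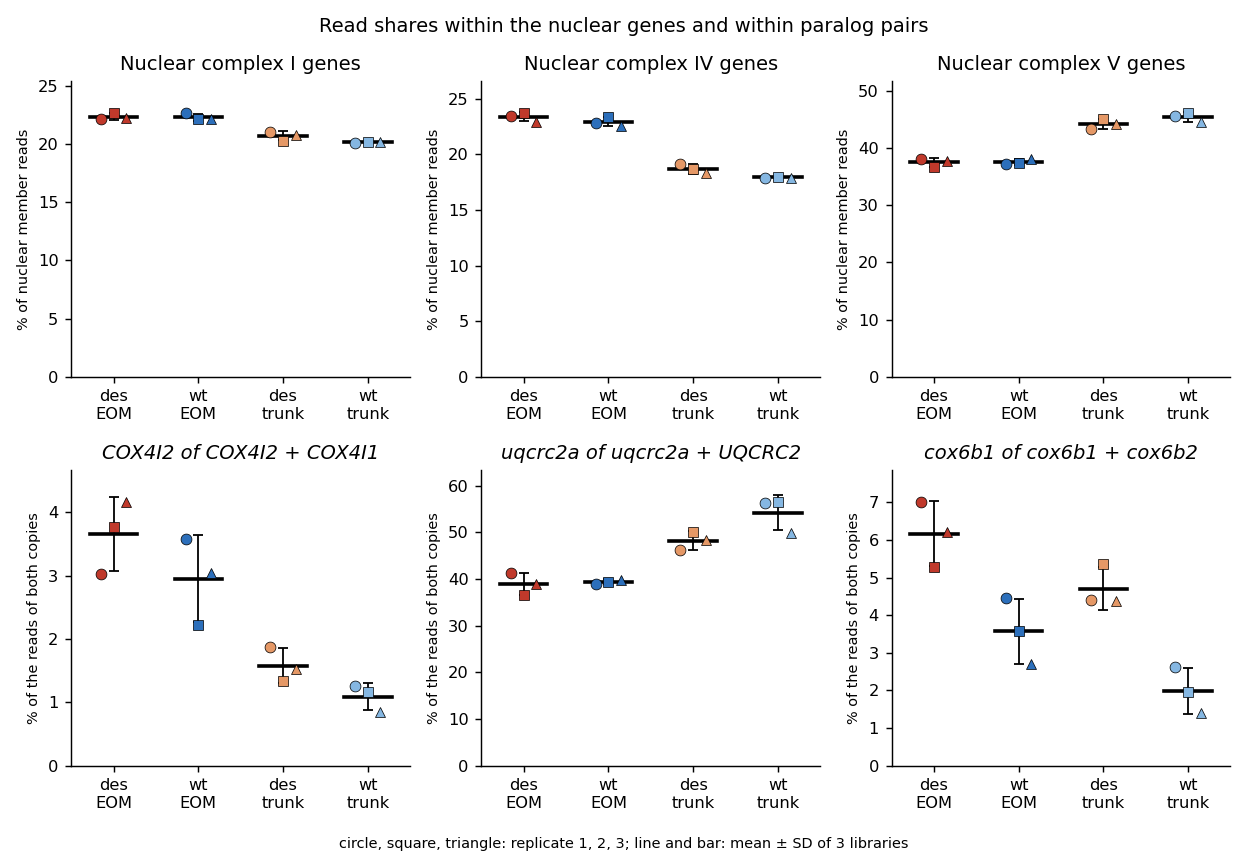
Top row, percent of the reads of nuclear members that belong to complexes I, IV and V; bottom row, percent of the reads of both copies that belong to COX4I2, uqcrc2a and cox6b1; each axis starts at 0, points are replicates, and lines with bars are the mean ± SD of 3 libraries. EOM and trunk separate in all panels but the last, in which des libraries lie above the wt libraries of the same muscle.

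Genes outside the symbol rule that act on the same chain were read from 5 lists. Of 51 tested assembly factors, 1 rose and 1 fell in des EOM, and the same 2 genes did so in des trunk. They were 3.92% of the list, beside 3.56% of all genes tested in EOM and 8.4% in trunk. taco1, which in humans activates translation of the MT-CO1 message, had 0.124, 0.242 and 0.111 CPM in des EOM, against 4.60, 7.69 and 5.92 CPM in wt EOM, and 0.304, 0.114 and 0.0837 CPM in des trunk, against 4.53, 5.45 and 7.42 CPM in wt trunk. The genotypes did not overlap in either muscle, and the log2 fold changes were -5.23 ± 0.34 in EOM and -5.10 ± 0.40 in trunk (edgeR adjusted p = 0.00072 and 0.000201). tmem186, an assembly factor of complex I in humans, had 1.16, 1.20 and 0.540 CPM in des EOM, against 0.0607, 0.0763 and 0.0149 CPM in wt EOM, and 0.564, 0.608 and 0.774 CPM in des trunk, against 0.0677, 0.0753 and 0.101 CPM in wt trunk. The wt values lay near the level of 3 reads. Its log2 fold changes were 4.18 in EOM and 2.98 in trunk (edgeR adjusted p = 0.00881 and 0.00425). Between the muscles 27 of 50 tested assembly factors fell and 1 rose in des EOM, or 54% and 2%, beside 25.7% and 27.4% of all genes tested. In wt EOM 9 fell and 4 rose, or 18% and 8%, below the 23.2% and 25.6% of all genes, a count not given without wt EOM replicate 2. Without TMM 3 were called lower and 28 higher in des EOM, or 6% and 56%, beside 8.35% and 60.7% of all genes. In wt EOM 2 were then called lower and 16 higher, or 4% and 32%, beside 10.4% and 48.9% of all genes. COX10, which makes the heme of complex IV, averaged 5.85 ± 0.576 CPM in des EOM, against 23.8 ± 2.20 CPM in des trunk, and 8.37 ± 0.456 CPM in wt EOM, against 31.3 ± 4.80 CPM in wt trunk (SD, n = 3 each), and it stayed called lower without TMM in both.

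Of 21 genes of pyruvate dehydrogenase and the citric acid cycle, 18 fell and 1 rose in des EOM relative to des trunk, and 16 fell and none rose in wt EOM relative to wt trunk. The falls were 85.7% and 76.2% of the list, beside 25.7% and 23.2% of all genes tested, and without TMM 10 were called lower in each genotype, or 47.6%, beside 8.35% of all genes in the mutants and 10.4% in WT fish. DLST, a subunit of the oxoglutarate dehydrogenase complex, averaged 126 ± 13.4 CPM in des EOM, against 446 ± 83.6 CPM in des trunk, and 132 ± 17.9 CPM in wt EOM, against 453 ± 39.0 CPM in wt trunk (SD, n = 3 each), log2 fold changes of -1.81 and -1.74 that stayed called without TMM. Between genotypes none of the 21 was called in EOM, with 2 at an unadjusted p under 0.05 in edgeR. Of 21 tested regulators of mitochondrial DNA expression and biogenesis, perm1a fell in des EOM, and MTERF2 and TWNK fell in des trunk. These were 4.76% of the list in EOM and 9.52% in trunk, beside 3.56% and 8.4% of all genes tested. perm1a, a muscle regulator of mitochondrial genes, had 5.33, 2.45 and 2.94 CPM in des EOM, against 7.58, 13.3 and 9.61 CPM in wt EOM, with a log2 fold change of -1.503 ± 0.31 and an edgeR adjusted p of 0.0399. TWNK, the helicase that unwinds mitochondrial DNA, had 6.58, 6.12 and 6.61 CPM in des trunk, against 12.5, 9.01 and 12.4 CPM in wt trunk, with a log2 fold change of -0.80 ± 0.17 and an edgeR adjusted p of 0.0169. Both had every des library below every wt library. Leaving out any single library but des EOM replicate 1 ended the perm1a call (adjusted p of up to 0.147), and leaving out wt trunk replicate 1 or replicate 1 or 2 of des trunk ended that of TWNK (up to 0.0854). The MTERF2 call was lost without TMM and without wt trunk replicate 1 or any des trunk library. Between the muscles 10 of the 21 fell and none rose in each genotype, or 47.6%, beside 25.7% of all genes called lower in the mutants and 23.2% in WT fish. Without TMM 4 were called lower and 11 higher in des EOM, or 19.0% and 52.4%, beside 8.35% and 60.7% of all genes. In wt EOM 5 were then called lower and 4 higher, or 23.8% and 19.0%, beside 10.4% and 48.9% of all genes. PPARGC1A, the coactivator PGC-1 alpha, averaged 2.07 ± 0.391 CPM in des EOM, against 12.7 ± 3.96 CPM in des trunk, and 3.05 ± 0.994 CPM in wt EOM, against 20.3 ± 5.83 CPM in wt trunk (SD, n = 3 each), log2 fold changes of -2.61 and -2.71 that stayed called without TMM. Of the mitochondrial ribosomal protein genes edgeR called none of 75 in EOM between genotypes, with 10 at an unadjusted p under 0.05. In trunk 2 of 74 fell, or 2.7%, below the 8.4% of all genes called. They were mrpl36 (-0.93, edgeR adjusted p = 0.0188) and MRPL51 (-0.69, edgeR adjusted p = 0.021). Both calls were lost without wt trunk replicate 1 or any des trunk library. In des EOM 47 of 74 fell and 1 rose relative to des trunk, or 63.5% lower, beside 25.7% of all genes. In wt EOM 14 of 75 fell relative to wt trunk, or 18.7%, below the 23.2% of all genes, again not given without wt EOM replicate 2. Without TMM 4 were called lower and 39 higher in des EOM, or 5.41% and 52.7%, beside 8.35% and 60.7% of all genes. In wt EOM 1 was then called lower and 14 higher, or 1.33% and 18.7%, beside 10.4% and 48.9% of all genes. Of 5 tested genes that feed or form the chain under symbols the rule missed, 3 fell in des EOM and 2 in wt EOM relative to trunk, and 0 rose. The falls were 60% and 40% of the list, beside 25.7% and 23.2% of all genes. Without TMM 1 was called lower and 2 higher in des EOM, and 0 lower and 1 higher in wt EOM. With TMM CYC1 (cytochrome c1 of complex III) fell in both genotypes, with log2 fold changes of -1.11 and -0.92, of which the WT call was lost without TMM. ETFDH, which passes electrons to ubiquinone and is no subunit of complexes I to V, also fell in both (-0.56 and -0.55), and turned to 0.19 and 0.037 without TMM. Its WT call was lost without replicate 1 of wt EOM or of wt trunk.

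Levels of other cell types moved with both factors. The 7 matched genes of 10 leukocyte markers summed to 1049, 1081 and 852 CPM in des EOM, against 602, 633 and 592 CPM in wt EOM, and to 631, 519 and 357 CPM in des trunk, against 210.1, 197 and 216 CPM in wt trunk. The 5 matched of 6 fibroblast markers summed to 882 to 1100.0 CPM in des EOM, against 719 to 780 CPM in wt EOM, and to 394 to 462 CPM in des trunk, against 217 to 326 CPM in wt trunk. Both sums were higher in every des library than in every wt library of the same muscle. edgeR called 5 of the 7 leukocyte genes and 1 of the 5 fibroblast genes higher in des EOM, beside 2.15% of all genes, and 7 of 7 and 1 of 5 in des trunk, beside 4.76%. The 4 matched of 6 endothelial markers were lower in every des library, with sums of 101.7 to 111.7 CPM in des EOM, against 124 to 152 CPM in wt EOM, and of 229 to 254 CPM in des trunk, against 287 to 297 CPM in wt trunk, and 1 was called lower in each muscle. The sums of general, slow-fibre and fast-fibre muscle markers were lower in EOM. The 4 matched of 9 general muscle markers summed to 14461 to 15830.4 CPM in des EOM, against 98172 to 119992 CPM in des trunk, and to 17082.5 to 20061 CPM in wt EOM, against 88327 to 114722 CPM in wt trunk, with 3 called lower and 1 higher in each genotype. The 5 matched of 8 slow-fibre markers summed to 2942 to 3544 CPM in des EOM, against 5758 to 7061 CPM in des trunk, and to 2631 to 3037 CPM in wt EOM, against 7069 to 9954 CPM in wt trunk. Of these 1 was called higher in EOM in each genotype, with 2 lower in the mutants and 3 lower in WT fish. The 5 matched of 10 fast-fibre markers summed to 18583 to 21828 CPM in des EOM, against 40223 to 53029 CPM in des trunk, and to 23557 to 25111 CPM in wt EOM, against 37318 to 47472 CPM in wt trunk. Here 1 was called higher and 4 lower in EOM in each genotype. Between genotypes the general muscle and fast-fibre sums were lower in every des EOM library, with no gene called, and the slow-fibre sum was lower in every des trunk library, with 2 genes called lower. The 5 matched of 6 neuron and glia markers summed to 580.2 to 687 CPM in des EOM, against 237 to 259 CPM in des trunk, and to 679 to 775 CPM in wt EOM, against 206 to 301 CPM in wt trunk. The 3 matched of 6 erythrocyte markers summed to 659 to 953 CPM in des EOM, against 270.1 to 438 CPM in des trunk, and to 982 to 2190 CPM in wt EOM, against 328 to 445 CPM in wt trunk, with every des EOM library below every wt EOM library. The 4 matched of 5 adipocyte markers summed to 496 to 637 CPM in des EOM, against 543 to 593 CPM in des trunk, and to 550.4 to 728 CPM in wt EOM, against 624 to 794 CPM in wt trunk, with overlap of the muscles in both. Photoreceptor and retina markers, with 10 of 12 names matched, summed to 69.5 to 192 CPM in des EOM and 46.0 to 370 CPM in wt EOM, against 1.04 to 1.62 CPM in des trunk and 8.32 to 71.6 CPM in wt trunk. None of the matched markers in these 10 lists was at 0 in all libraries. The part of these cell types in the differences of the respiratory chain genes was not tested.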

How the data were processed

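Per the labels' protocols, libraries were stranded and poly-A selected. The submitters' processing notes name STAR, DESeq2 and genome build GRCz11, without versions. The deposited values are raw counts of reads per gene, 1 table per library, for either strand and for each strand. The column that held 96.8% to 97.2% of stranded gene reads was taken as the sense count. Tallies outside genes (multimapping 9.96% to 11.4%, no gene 5.93% to 9.57%, ambiguous 1.34% to 1.59%) were left out. Symbols matched 29201 of 32520 identifiers. Tests used edgeR 4.0.16 under R 4.3.3 on sense counts (filterByExpr, TMM factors of 0.71 to 1.38, robust quasi-likelihood fit, Benjamini-Hochberg over all genes tested, call at an adjusted p under 0.05), on the 6 libraries compared or, for the difference, on all 12, after a check on simulated data. SE is the fold change divided by the root of F. Alternatives included DESeq2 1.42.0. No counting interval is given for sums, and floors cover counting error only.

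Named genes were the members called between genotypes, the 6 largest rises and falls between muscles in each genotype, every mitochondrial gene, the nuclear gene with most reads in each complex, their paralogs, and up to 4 called genes per list and comparison. Outside these rules, NDUFA4L2, atp5mea, sdhaf1, UQCRH, ndufb3 and SDHB were named after their values were seen. Members and lists were chosen with earlier results of these data known. Sequences and gene lengths were not used here, so levels are not compared between genes.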

Additional observations from a re-analysis of the deposited data

Results flagged for a closer look

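The genotype effect on ndufa4b differed between the muscles. Its log2 fold change, des over wt, was -2.10 ± 0.18 in EOM and 0.18 ± 0.16 in trunk (SE, 3 libraries each), and the difference, EOM minus trunk, was -2.26 ± 0.24 in a fit of all 12 libraries (edgeR adjusted p = 0.00159). The gene had 1.58 to 2.12 CPM in des EOM, against 6.79 to 9.06 CPM in wt EOM, and 4.60 to 5.51 CPM in des trunk, against 4.10 to 4.83 CPM in wt trunk. Every library of des EOM was below every library of the other groups.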

How the results depend on the processing

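Genotype calls were few and moved with the tool. In EOM 1 member was called, against 2 with no filter on low counts or in the fit of all 12 libraries, and 4 with DESeq2 or the replicate block, while every fit that left out 1 library gave 1. Of all genes tested 3.56% were called in EOM, against 8.26% with DESeq2 and 6.28% with the block. The share was 2.89% with no filter, 4.12% in the fit of all 12 libraries and 0.655% to 3.34% with 1 library left out. DESeq2 and the block added the same 3 members, NDUFA4L2, atp5mea and sdhaf1. In trunk 3 were called, against 5 with no filter, 7 with DESeq2 and 1 to 4 with 1 library left out. The difference between muscles gave 1 in all settings tried. Between muscles 32 were called in WT fish, against 54 on unscaled totals, 21 with the replicate block and 17 to 56 with 1 library left out, and 65 in the mutants, with 48 to 66. Of all genes tested 48.8% were called in WT fish, against 59.3% on unscaled totals, 40.8% with the block and 36.6% to 46.0% with 1 library left out. In the mutants the share was 53.1%, with 44.1% to 53.4%. Same-numbered libraries had correlations of -0.37 to 0.51, and not every library correlated best with its own number. Between genotypes in EOM replicates 2 and 3 did so (0.37 and 0.51), and replicate 1 did not (-0.25). The labels do not say what a replicate number marks, and correlations within groups of 3 libraries cannot decide it. With the block 2 members were called in trunk, 1 in the difference and 71 in the mutant muscles, beside 7.14%, 0.0305% and 51.6% of all genes tested. The cause of these shifts was not tested.

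On unscaled totals the log2 ratio of the mitochondrial sum in EOM, des over wt, was -0.11 instead of -0.21. EOM over trunk, it turned to 0.46 in WT fish and 0.61 in mutants, and that of the nuclear sum to 0.15 and 0.13. In mutants the sums turned to 0.24 for complex I, 0.15 for complex II, 0.15 for complex III and 0.45 for complex IV, and in WT fish to 0.30 for complex I, 0.16 for complex II, 0.19 for complex III and 0.51 for complex IV. Single genes also turned: in WT fish MT-CO1 to 0.23 and COX6A1 to 0.040, and in mutants MT-ND5 to 0.18, MT-CO1 to 0.19, NDUFV1 to 0.0060, SDHA to 0.14, COX5B ENSDARG00000068738.5 to 0.28, cox7a1 to 0.17, NDUFA4 to 0.17 and SDHD ENSDARG00000030139.5 to 0.44. Of the other genes named, TWNK in WT fish turned to 0.0030, ETFDH to 0.037 in WT fish and 0.19 in mutants, and in mutants MTERF2 turned to 0.19 and MRPL51 to 0.21. These shifts follow from the scaling itself, which moves all genes of a library together. Counting either strand turned MT-ND6 to -0.31 in mutants, since reads of the opposite strand then enter.

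With 3 libraries a group, a difference that missed the threshold is not shown to be absent. DESeq2 called 44 of 110 members between WT muscles and 71 of 110 between mutant muscles, beside 49.97% and 52.7% of all genes tested.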
